A study of Homo sapiens with 8 samples.

Results

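Transcripts of 10 genes of the bone morphogenetic protein (BMP) pathway were followed in cells treated with sodium benzoate (SB). They are the ligands BMP4 and BMP7, the secreted antagonist NOG, the target genes ID1, ID2, ID3 and ID4, and the inhibitors SMAD6, SMAD7 and BAMBI. The list was drawn up by gene name with the SB-treated against control result already known, in which NOG is the gene with rank 5 among the falls, so the levels and changes of the 10 genes are given as a description, without p-values. All 10 have a row in the table of 14526 genes, and each was above 1 CPM (counts per 1e+06 reads) in all 8 libraries. The study sequenced total RNA from cultured cells labelled HepG2, a line derived from a human liver carcinoma, grown in DMEM with 10% fetal bovine serum. It compared 4 control replicates with 4 replicates that had received 10 mM sodium benzoate for 24 h before harvest. The question was how gene expression changes when histone lysine benzoylation is raised by SB, a food preservative from which cells can make benzoyl-CoA. All samples are of the same line, and the control replicates had no SB in the medium.

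BMPs are secreted ligands that bring together type I and type II serine/threonine kinase receptors. The receptors phosphorylate SMAD1, SMAD5 and SMAD9, which enter the nucleus with SMAD4 and switch on target genes. The ID genes are among the most direct of these targets. Their products are helix-loop-helix proteins without a DNA-binding region, which bind E proteins and keep them off DNA, and they are known for holding back differentiation. The pathway is limited at several levels: noggin, the product of NOG, binds BMPs outside the cell, BAMBI is a pseudoreceptor without a kinase domain, and SMAD6 and SMAD7 are inhibitory SMADs that are themselves induced by the pathway. In liver, BMP signalling is known for the control of the iron hormone hepcidin, the product of HAMP. HAMP itself has no row among the genes measured here.

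The values are RPKM, reads per kilobase of gene length and scaled to library size, so that levels of different genes can be compared with each other. The recovered reads ranged from 36990091 to 44878446 per library. Of 20 markers of hepatocytes, 18 have no row in the table, among them ALB, AFP, APOA1 and HNF4A, so the markers go against the labelled cell type. TF, the gene of transferrin, was at 0.167 to 0.210 RPKM in control and 0.316 to 0.485 RPKM in SB-treated libraries. Of 8 markers of fibroblasts, 4 have a row and sum to 6.63 to 8.97 RPKM in control and 6.62 to 6.98 RPKM in SB-treated libraries, and of 8 macrophage markers, 2 have a row, at 2.09 to 2.34 RPKM and 2.18 to 3.14 RPKM. The part of these markers in the results was not tested. In bulk RNA a lower level can come from fewer cells of a type or from less RNA per cell, and these cannot be told apart. Control replicate 1 lay farthest from the mean of its group for 67.0% of all genes and for 7 of the 10 BMP pathway genes, and without it the differences in log2(RPKM + 1) were -0.86 in place of -0.92 for ID2 and -0.86 in place of -0.91 for BAMBI.

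Among the 10 genes, NOG showed the largest difference between the groups. Noggin forms dimers that cover the receptor-binding surfaces of BMP4 and BMP7. Its hg38 coordinates are chromosome 17, start 56593699, end 56595611, plus strand. The transcript was at 5.44, 4.65, 4.99 and 4.22 RPKM in control replicates 1 to 4 and at 0.866, 0.997, 1.10 and 1.03 RPKM in SB-treated replicates 1 to 4. All 4 SB-treated libraries lay far below the lowest control. The mean was 4.82 ± 0.518 RPKM (SD, n = 4) in control and 0.999 ± 0.0981 RPKM (SD, n = 4) in SB-treated cells, which is 20.7% of the control level. These values rest on 326 to 438 reads per control library and 63 to 91 reads per SB-treated library. The difference in log2(RPKM + 1), SB-treated minus control, was -1.54 (standard error 0.0651 in limma). This scale understates the change of a gene with a low RPKM, and limma with voom on the recovered reads gave a log2 fold change of -2.26 (standard error 0.117). Only 4 of the 14526 genes, 0.0275%, had a larger fall on the log2(RPKM + 1) scale.

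The ligands differed from each other. BMP4 maps to chromosome 14 (start 53949736, end 53958761, minus strand). Its level was 3.78, 4.10, 4.10 and 4.07 RPKM in the controls and 2.97, 2.72, 2.77 and 2.72 RPKM in the SB-treated replicates. The groups did not overlap, and the mean was 69.6% of the control mean (4.01 ± 0.155 against 2.79 ± 0.123 RPKM, SD, n = 4 each). BMP7 (chromosome 20, start 57168753, end 57266641, minus strand) was the more abundant ligand, with a control mean of 16.8 ± 1.0 RPKM (SD, n = 4). It was at 15.4, 17.1, 17.7 and 17.1 RPKM in the controls and at 15.9, 16.5, 16.8 and 15.5 RPKM in the SB-treated replicates. These groups overlapped, and the difference in log2(RPKM + 1) was -0.05 (standard error 0.0477). It was -0.09 without control replicate 1 and 0.05 with library sizes that lack the TMM factors. The ratio of the summed RPKM of BMP4 and BMP7 to that of NOG, which does not depend on how libraries are scaled, was 3.52 to 5.02 in control and 17.6 to 21.8 in SB-treated libraries.

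The 4 ID genes were lower in every SB-treated library than in every control library. ID2 was the most abundant of the 10 genes, at 204, 173, 173 and 166 RPKM in the controls and at 93.4, 94.2, 91.7 and 95.3 RPKM in the SB-treated replicates. Its mean thus stood at 52.4% of the control mean, and its difference in log2(RPKM + 1) was -0.92 (standard error 0.0598). ID1 was at 15.3, 13.6, 15.2 and 14.2 RPKM in the controls and at 8.38, 8.90, 9.04 and 8.71 RPKM in the SB-treated replicates, a mean of 60.1% of control. ID1 is the family member most often used as a readout of BMP signalling.

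ID3 and ID4 changed by less. ID3 was at 100.1, 129, 121 and 125 RPKM in the controls and at 80.9, 91.9, 89.2 and 88.9 RPKM in the SB-treated replicates, where the mean was 73.9% of the control mean. Control replicate 1 was the lowest control for ID3, and without it the difference in log2(RPKM + 1) was -0.51 in place of -0.43. ID4 was at 37.6, 29.4, 30.3 and 29.0 RPKM in the controls and at 24.7, 23.7, 24.1 and 23.5 RPKM in the SB-treated replicates, a mean of 76.1% of control. Here control replicate 1 was the highest control, and without it the difference was -0.29 in place of -0.37. The 4 genes are on 4 chromosomes: ID1 on 20 (31605283 to 31606515, plus strand), ID2 on 2 (8678845 to 8684461, plus strand), ID3 on 1 (23557926 to 23559501, minus strand) and ID4 on 6 (19837370 to 19842197, plus strand).

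As a pool, the 4 ID transcripts summed to 344 ± 9.61 RPKM (SD, n = 4) in control and 214 ± 4.86 RPKM (SD, n = 4) in SB-treated cells. ID2 made up 49.7% to 57.1% of this pool in the controls and 42.9% to 45.0% in the SB-treated libraries. The share of ID3 was 28.1% to 37.4% in the controls and 39.0% to 42.0% in the SB-treated libraries, and the share of ID1 overlapped between the groups at 3.94% to 4.47% and 4.02% to 4.22%. The pool was therefore smaller and held less ID2 relative to ID3. E proteins, the binding partners of ID proteins, were followed as a list of 3 genes. TCF3 was at 32.5 ± 1.37 RPKM in control and 32.8 ± 1.56 RPKM in SB-treated cells, TCF12 at 16.5 ± 1.6 and 16.9 ± 0.220 RPKM (SD, n = 4 each), and neither passed the threshold in limma (adjusted p = 0.80 and 0.596). The less abundant TCF4 was lower, at 3.09 ± 0.0257 against 2.68 ± 0.0347 RPKM (SD, n = 4 each, limma adjusted p = 0.00119). The ratio of the ID sum to the sum of the 3 E protein genes was 6.44 to 6.81 in control and 4.03 to 4.18 in SB-treated libraries.

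**Figure D1:**
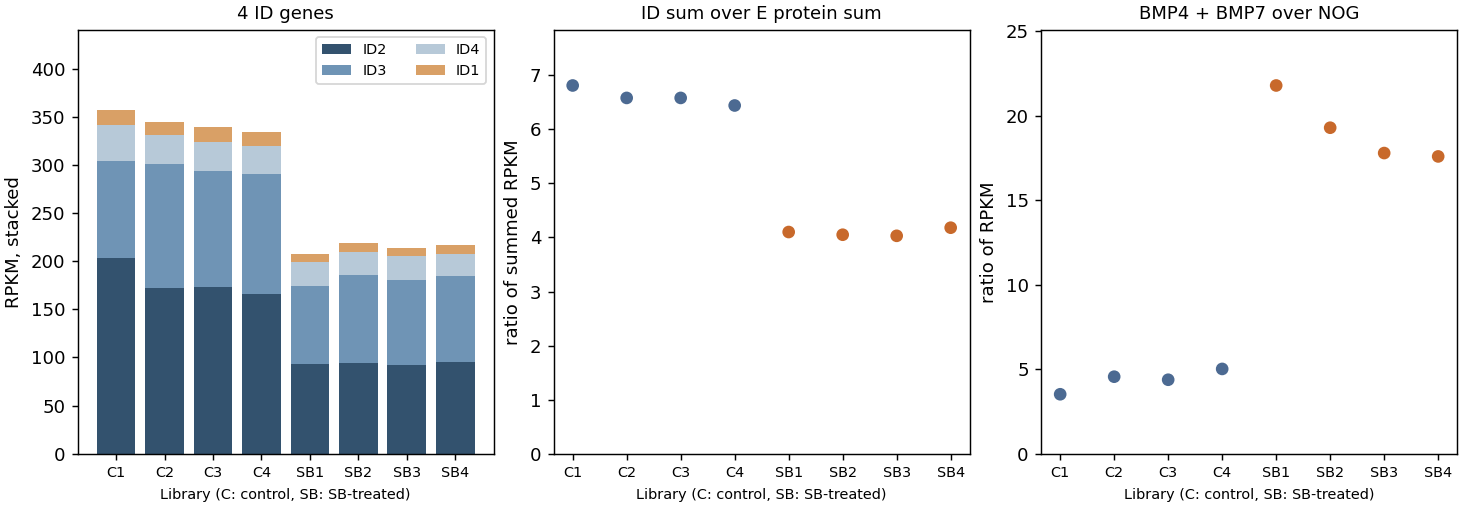
The stacked bars give the RPKM of ID2, ID3, ID4 and ID1 in each of the 8 libraries, and the points give, per library, the ratio of the ID sum to the sum of TCF3, TCF4 and TCF12 and the ratio of BMP4 plus BMP7 to NOG (C, control, SB, SB-treated, numbers are replicates, all axes start at 0). The ID to E protein ratio lies between 6.44 and 6.81 in the controls and between 4.03 and 4.18 with SB, while the ligand to NOG ratio lies between 3.52 and 5.02 and between 17.6 and 21.8.

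Of the 3 intracellular or membrane inhibitors, BAMBI differed most. Its gene (chromosome 10, start 28677510, end 28682932, plus strand) was at 16.0, 14.5, 14.6 and 13.4 RPKM in the controls and at 6.88, 7.28, 7.43 and 7.77 RPKM in the SB-treated replicates. The SB-treated mean was 50.2% of the control mean, and the difference in log2(RPKM + 1) was -0.91 (standard error 0.0545), close in size to that of ID2. SMAD7, which blocks receptors of the BMP and TGF-β families, maps to chromosome 18 (start 48919853, end 48950965, minus strand). It was at 9.80, 10.0, 9.06 and 9.07 RPKM in the controls and at 8.17, 8.07, 7.46 and 8.01 RPKM in the SB-treated replicates, 83.5% of control with no overlap. SMAD6, which acts mainly on the BMP branch, maps to chromosome 15 (start 66702236, end 66782849, plus strand). It was at 8.0, 7.15, 6.93 and 6.59 RPKM in the controls and at 6.49, 7.53, 7.18 and 7.81 RPKM in the SB-treated replicates. The groups overlapped throughout, the means were 7.17 ± 0.601 and 7.25 ± 0.571 RPKM (SD, n = 4 each), and the difference in log2(RPKM + 1) was 0.02 (standard error 0.0644), with a sign that depended on which library was left out.

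**Figure D2:**
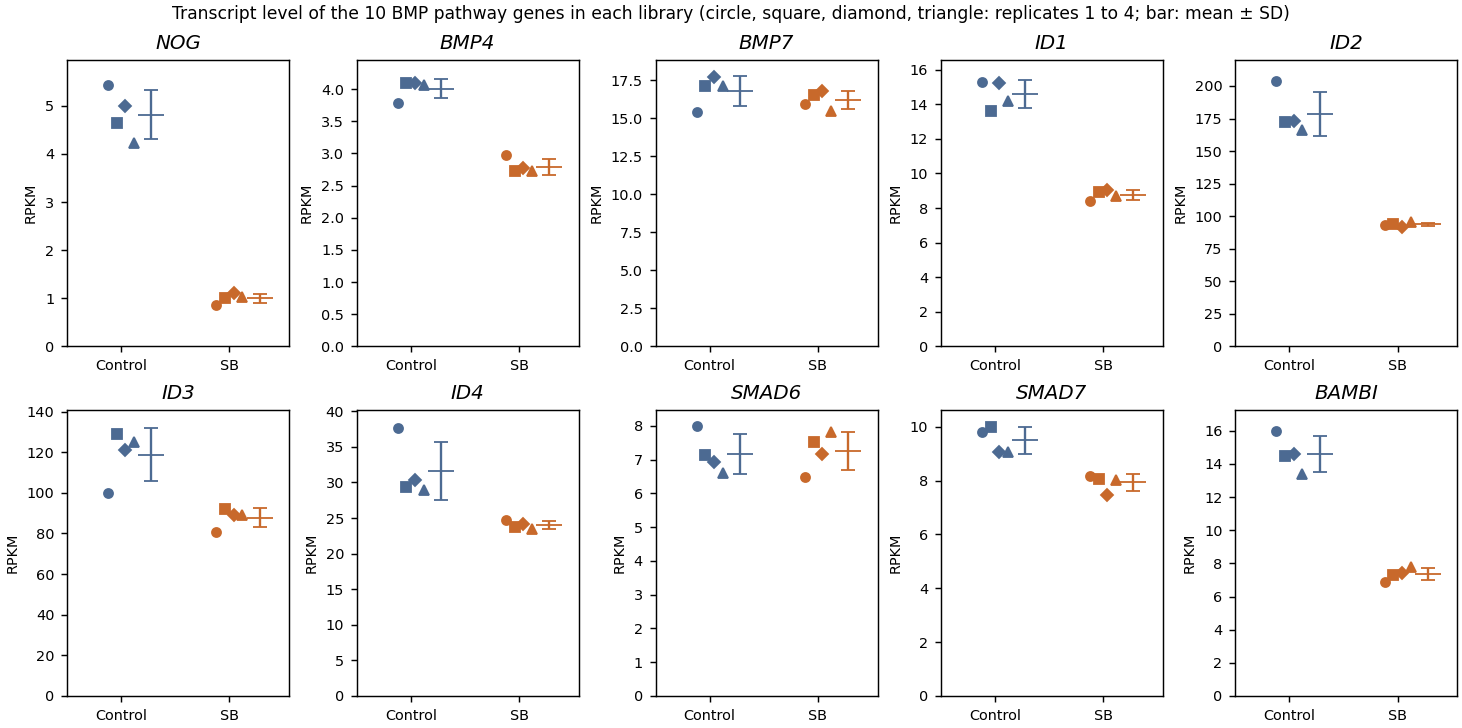
Each panel plots the RPKM of 1 gene in the 4 control (blue) and 4 SB-treated (orange) libraries on an axis that starts at 0, with the symbols marking replicates 1 to 4 and the bars giving the mean and the SD. The groups are apart for 8 genes, most widely for NOG at 4.22 to 5.44 against 0.866 to 1.10 RPKM, and overlap for BMP7 and SMAD6. Of all genes, 30.5% were lower and 31.0% were higher with no overlap.

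In order of control level the genes were ID2, ID3, ID4, BMP7, BAMBI, ID1, SMAD7, SMAD6, NOG and BMP4. The control replicates of BMP7 overlapped with those of BAMBI, and those of BAMBI with those of ID1, whereas the other neighbours in this order did not overlap. In SB-treated cells NOG moved from rank 9 to rank 10, below BMP4 without overlap. BAMBI moved from rank 5 to rank 7, where its replicates (6.88 to 7.77 RPKM) overlapped with those of SMAD6 and SMAD7. Across all 14526 genes the control levels of ID2 and ID3 were higher than those of 98.1% and 96.8% of genes, while NOG and BMP4 stood above 37.5% and 34.1%.

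In the comparison across all genes with limma, 8 of the 10 genes were lower with an adjusted p-value below 0.05, against 32.6% of all genes lower and 33.0% higher. For these 8 genes every SB-treated value was below every control value, against 30.5% of all genes lower and 31.0% higher. None of the 10 was higher, neither at an unadjusted p-value below 0.05 (0 genes in limma) nor with voom (0 genes). Because the genes were listed with this contrast in view, nothing is read from these counts. Their differences in log2(RPKM + 1) ranged from -1.54 to 0.02 with a median of -0.415, beside a median of 0.005 over all genes.

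The sequences before the starts of the ID genes and of BAMBI are shown. These 5 genes were picked after their values were seen, as genes that were lower and are targets of SMAD complexes. BMP4 and SMAD7 were also lower, and SMAD7 too is induced by the pathway, but their sequences are not shown. The part of SMADs in these changes was not tested. The sequences come from the RefSeq promoter table for GRCh38.p14, in which 8 of the 10 genes were found and NOG and BMP7 were not. Each runs 5′ to 3′ along the strand of the gene over the 250 bases before its RefSeq start. Capitals mark the GC-rich boxes GGCGCC and GGCGCG bound by SMAD1 and SMAD5 and the E box CAGCTG, a site of E protein dimers, searched on both strands.

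ID1, chr20:31605039-31605288, plus strand: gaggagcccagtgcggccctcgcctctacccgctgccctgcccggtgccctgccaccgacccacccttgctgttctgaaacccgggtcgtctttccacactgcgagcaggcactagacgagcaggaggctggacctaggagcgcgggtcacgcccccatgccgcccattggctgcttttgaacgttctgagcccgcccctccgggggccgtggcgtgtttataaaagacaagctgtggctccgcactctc

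ID2, chr2:8681806-8682055, plus strand: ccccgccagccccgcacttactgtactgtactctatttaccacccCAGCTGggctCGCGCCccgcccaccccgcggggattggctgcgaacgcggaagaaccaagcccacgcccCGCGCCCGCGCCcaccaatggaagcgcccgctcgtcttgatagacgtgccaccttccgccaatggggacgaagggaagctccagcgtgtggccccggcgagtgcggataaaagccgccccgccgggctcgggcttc

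ID3, chr1:23559502-23559751, minus strand: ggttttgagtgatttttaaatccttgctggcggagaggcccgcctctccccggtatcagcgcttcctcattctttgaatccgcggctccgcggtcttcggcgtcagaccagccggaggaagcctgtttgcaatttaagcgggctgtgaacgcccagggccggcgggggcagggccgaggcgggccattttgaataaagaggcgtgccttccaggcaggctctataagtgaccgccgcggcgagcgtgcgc

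ID4, chr6:19837120-19837369, plus strand: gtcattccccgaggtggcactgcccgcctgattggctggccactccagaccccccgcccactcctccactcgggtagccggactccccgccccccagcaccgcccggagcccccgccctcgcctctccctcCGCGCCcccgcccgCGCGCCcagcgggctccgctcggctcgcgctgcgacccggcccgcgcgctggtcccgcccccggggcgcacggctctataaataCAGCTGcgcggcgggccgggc

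BAMBI, chr10:28677271-28677520, plus strand: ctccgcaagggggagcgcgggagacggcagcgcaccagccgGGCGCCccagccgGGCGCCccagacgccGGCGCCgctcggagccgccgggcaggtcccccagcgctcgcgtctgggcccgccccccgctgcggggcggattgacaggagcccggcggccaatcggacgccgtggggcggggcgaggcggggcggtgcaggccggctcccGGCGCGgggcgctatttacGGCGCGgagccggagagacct

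Within the window from 250 bases before to 50 after the start, GGCGCC was present in 2 of the 8 promoters, BAMBI and BMP4, and in 19.0% of 27305 promoters of all genes. The start used for BMP4 lies inside the gene. The 250 bases before it are chr14:53955051-53955300, whereas the RefSeq span of BMP4, on the minus strand, runs up to 53956891. GGCGCG or its reverse complement CGCGCC, which can overlap with GGCGCC, was present in BAMBI, BMP4, ID2 and ID4 and in 28.4% of all promoters. CAGCTG was present in ID2 and ID4 and in 17.7% of all promoters, and the E box CACCTG or its reverse complement CAGGTG was in 0 of the 8 and in 20.6% of all. BAMBI and ID4 have promoters rich in G and C, with 80.0% and 76.3%, above 97.4% and 92.9% of all promoters. ID1 and ID3, with none of these boxes, have 62.7% and 59.7%.

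A longer window, the 2000 bases before the start, was searched for the composite of GGCGNC, 5 bases of any kind and GTCT, to which SMAD1 or SMAD5 and SMAD4 bind side by side. The window and the composite were chosen after the values were seen. It was found in 1 of the 8 genes, ID1, and before 0.857% of the 27305 starts of all genes. It lies 904 bases before the RefSeq start of ID1 and is printed with 8 bases on either side, the composite in capitals.

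ID1, chr20:31604370-31604400, plus strand: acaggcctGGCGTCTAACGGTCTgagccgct

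These matches describe letters in the reference genome. Binding of SMADs at them and the ChIP-seq data of the study were not analysed here.

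The rest of the pathway was followed through 8 lists set up by role, of which 62 of 78 listed names have a row (HJV and its older name HFE2 count as 2, neither with a row). In limma 21 of these were higher and 25 were lower, beside the 33.0% and 32.6% of all genes. With library sizes without the TMM factors 23 were higher and 17 were lower. In that setting 6253 of all 14526 genes were higher and 3357 were lower. Of the 21 and of the 25, 1 gene each passed the filter of 1 CPM only through the group where it was higher, so its call supports nothing. The median difference in log2(RPKM + 1) over the 62 genes was -0.031.

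Of 11 receptors and co-receptors with a row, 4 were higher and 4 were lower, or 36.4% each, close to the 33.0% and 32.6% of all genes. BMPR2, BMPR1A, ACVR1 and ACVR2B were higher, the type II receptor ACVR2A was lower, with a difference in log2(RPKM + 1) of -0.25 (limma adjusted p = 3.27e-04), and the type I receptor BMPR1B differed by -0.06 (limma adjusted p = 0.37). ACVR2A, ACVR2B and BMPR1B were named after their values were seen. BMPR2, the type II receptor specific to BMPs, was at 7.52, 7.41, 6.88 and 7.11 RPKM in the controls and at 12.3, 11.8, 11.8 and 12.0 RPKM with SB, a rise of 1.66-fold (difference in log2(RPKM + 1) 0.66, standard error 0.0366, limma adjusted p = 8.59e-07). BMPR1A, the most abundant receptor of the list and a type I receptor for BMP4, rose from 18.8 ± 1.49 to 24.4 ± 0.847 RPKM (SD, n = 4 each, limma adjusted p = 2.5e-04). ACVR1, a type I receptor used by BMP7, rose from 7.01 ± 0.427 to 8.74 ± 0.379 RPKM (SD, n = 4 each, limma adjusted p = 5.55e-04). The largest fall in the list was in ACVRL1, a type I receptor known from endothelium, from 0.622 ± 0.133 to 0.303 ± 0.0541 RPKM (SD, n = 4 each, limma adjusted p = 0.00139), for which voom gave -1.02 on the log2 scale against -0.31 in log2(RPKM + 1).

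Of the SMADs that carry the signal, 3 were higher and 1 was lower, against 33.0% and 32.6% of all genes. SMAD5, the most abundant of them, fell from 34.9 ± 1.68 to 28.5 ± 0.246 RPKM (SD, n = 4 each, limma adjusted p = 1.72e-04). SMAD1 rose from 10.6 ± 1.24 to 13.2 ± 0.651 RPKM (limma adjusted p = 0.00387) and SMAD4, the common partner, from 8.53 ± 0.186 to 10.0 ± 0.178 RPKM (limma adjusted p = 3.01e-04, SD, n = 4 each). SMAD9 was the other gene of this list that was higher. Of the 8 intracellular repressors, 2 were higher and 4 lower, against the same shares of all genes. SKI, a corepressor that binds SMADs, rose from 17.8 ± 0.343 to 24.8 ± 1.03 RPKM (SD, n = 4 each, limma adjusted p = 7.26e-06). FKBP1A, which keeps type I receptors inactive, fell from 127 ± 7.74 to 83.8 ± 1.37 RPKM (SD, n = 4 each, limma adjusted p = 4.27e-06) and was the most abundant gene of that list.

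Of 12 other secreted antagonists and modulators with a row, 4 were higher and 3 were lower, against 33.0% and 32.6% of all genes. Of the 3 lower genes, 1 passed the filter of 1 CPM only through the control libraries, so its call supports nothing. The largest rise was in FSTL3, an inhibitor of activins that also binds BMPs, from 3.11 ± 0.369 to 5.41 ± 0.339 RPKM (SD, n = 4 each, limma adjusted p = 2.8e-05). CRIM1, the most abundant, fell from 12.1 ± 0.414 to 10.9 ± 0.208 RPKM (SD, n = 4 each, limma adjusted p = 0.00712), and did not pass the threshold without the TMM factors. Of the 7 other ligands with a row, BMP8B rose most in log2(RPKM + 1), from 2.25 ± 0.204 to 4.12 ± 0.143 RPKM (SD, n = 4 each, limma adjusted p = 3.61e-06). BMP6, the ligand that drives hepcidin in liver, fell most on this scale, from 2.69 ± 0.278 to 1.94 ± 0.0865 RPKM (SD, n = 4 each, limma adjusted p = 5.14e-04). The scale gives less weight to ligands with a lower RPKM. BMP8A and BMP8B are near copies of each other, and how reads shared between them were counted is not given in the sources used here.

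Of 7 other genes known to be induced by BMPs with a row, 5 were lower and 1 was higher, against 32.6% and 33.0% of all genes. This list too was set with the results known, so its count is a description, with a median difference in log2(RPKM + 1) of -0.404. DLX5, a homeobox gene of bone and craniofacial development, was at 9.67, 8.88, 8.45 and 9.47 RPKM in the controls and at 4.92, 4.38, 4.90 and 4.50 RPKM with SB (difference in log2(RPKM + 1) -0.83, standard error 0.0508, limma adjusted p = 1.22e-06). HEY1, a repressor that is also a target of Notch, was the most abundant and fell from 171 ± 11 to 97.7 ± 0.970 RPKM (SD, n = 4 each, limma adjusted p = 1.02e-06). The other genes that fell were MSX1, MSX2 and GATA3, with SB-treated means at 68.4% to 73.4% of control. These and TBX3 were named after their values were seen, and TBX3 stood at 99.6% of its control mean. ATOH8 was the gene that was higher, at 0.118 ± 0.0017 against 0.201 ± 0.0193 RPKM (SD, n = 4 each). It passed the filter of 1 CPM only through the SB-treated libraries, so it had a row only because it was higher there and its call supports nothing.

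The TGF-β and activin arm shares SMAD4, SMAD7 and BAMBI with the BMP arm. Of its 10 genes with a row, 5 were higher and 4 were lower, against 33.0% and 32.6% of all genes. The largest rise was in INHBE, which encodes an activin subunit made in liver, from 5.75 ± 0.180 to 9.44 ± 0.165 RPKM (SD, n = 4 each, limma adjusted p = 6.65e-07). The largest fall was in the ligand TGFB2, from 0.811 ± 0.0822 to 0.507 ± 0.0593 RPKM (SD, n = 4 each, limma adjusted p = 5.58e-04). ACVR1B, an activin type I receptor and the most abundant gene of this list, rose from 14.3 ± 0.994 to 16.0 ± 0.271 RPKM (SD, n = 4 each, limma adjusted p = 0.0203), with an adjusted p of 0.0504 to 0.0529 in limma without control replicate 3 or SB-treated replicate 3 or 4. For the low genes of these lists voom gave larger log2 fold changes, 0.74 for ATOH8 and -0.68 for TGFB2, beside 0.10 and -0.27 in log2(RPKM + 1). The rise of ATOH8 supports nothing on either scale, because of the filter.

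**Figure D3:**
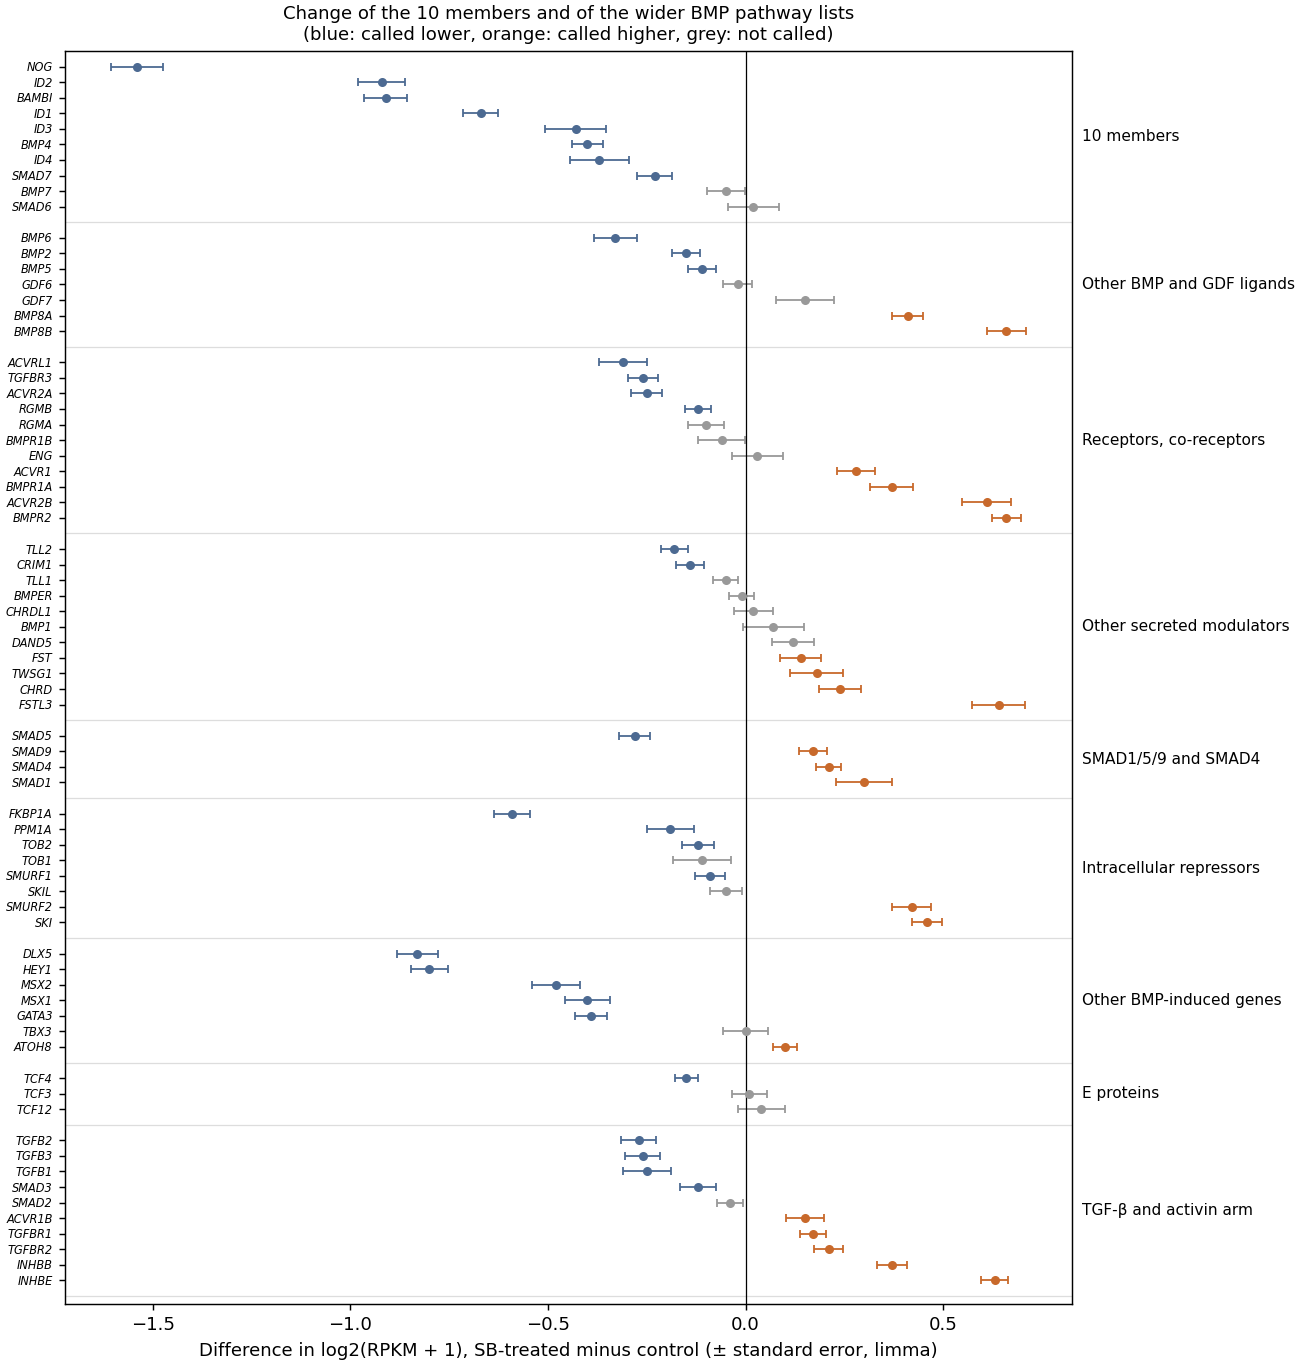
Points give the difference in log2(RPKM + 1), SB-treated minus control, of each gene reported and bars its standard error from limma, with genes grouped by role and coloured by whether they were lower (blue), higher (orange) or past neither threshold (grey) at an adjusted p-value below 0.05. The 10 genes run from -1.54 for NOG to 0.02 for SMAD6, receptors from -0.31 for ACVRL1 to 0.66 for BMPR2, and the other BMP-induced genes from -0.83 for DLX5 to 0.10 for ATOH8. ATOH8 passed the filter of 1 CPM only through the SB-treated libraries, so its rise supports nothing.

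Position on the chromosome was not used to list the genes. The nearest genes of the table on either side of the 10 genes number 20, of which 8 were higher, 8 were lower and 4 were not past the threshold in limma, against 33.0% higher and 32.6% lower among all genes. ID2-AS1, among the 8 higher, passed the filter of 1 CPM only through SB-treated libraries, so its call supports nothing. The neighbours of NOG, PCTP 741 kb before it and C17orf67 196 kb after it, differed in log2(RPKM + 1) by -0.27 and 0.19 (limma adjusted p = 6.17e-04 and 0.00419). Both neighbours of BMP7 fell: TFAP2C differed by -0.56 and RAE1 by -0.57 in log2(RPKM + 1) (limma adjusted p = 8.51e-06 and 3.17e-06). CTIF and DYM, on either side of SMAD7, rose by 0.45 and 0.11 (limma adjusted p = 3.37e-05 and 0.0203). Around ID1, neither HM13 nor BCL2L1 passed the threshold (limma adjusted p = 0.737 and 0.178).

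The closest neighbour was ID2-AS1, a noncoding RNA gene on the opposite strand whose span stops 193 bases before the RefSeq start of ID2. It was at 0.397 ± 0.0268 RPKM in control and 0.560 ± 0.116 RPKM with SB (SD, n = 4 each, difference in log2(RPKM + 1) 0.16, limma adjusted p = 0.0256), while ID2 itself was lower. The replicates of the groups overlapped. ID2-AS1 passed the filter of 1 CPM only through 2 SB-treated libraries, so its call supports nothing. Its adjusted p-value in limma was 0.0535 to 0.0764 without control replicate 2 or 3 or SB-treated replicate 1 or 3. The library kit marked the strand, and whether the counting used it is not given in the sources used here, and the GENCODE span of ID2 overlaps that of ID2-AS1, so reads of the pair may not be told apart. On the other side of ID2, KIDINS220 was lower, with a difference of -0.19 in log2(RPKM + 1) (limma adjusted p = 0.00104). The remaining neighbours past the threshold were higher for DDHD1, E2F2, MBOAT1 and SVIL-AS1, between 0.13 and 0.33, and lower for CDKN3, RPL11, RNF144B and SMAD3, between -0.26 and -0.12. The calls of DDHD1, E2F2, SMAD3 and DYM were lost when single libraries were left out. That of SMAD3 was also lost without the TMM factors (adjusted p = 0.693 in limma), with the replicate block (0.0812), with a pseudocount of 0.1 (0.0596) and with an intensity trend (0.0582). In limma the adjusted p reached 0.0934 for DDHD1 without control replicate 2, 3 or 4 or SB-treated replicate 1, 2 or 4, and 0.068 for E2F2 without SB-treated replicate 2, 3 or 4. It reached 0.127 for SMAD3 in limma without control or SB-treated replicate 2, 3 or 4, and 0.0612 for DYM without control replicate 3 or SB-treated replicate 1 or 4.

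**Figure D4:**
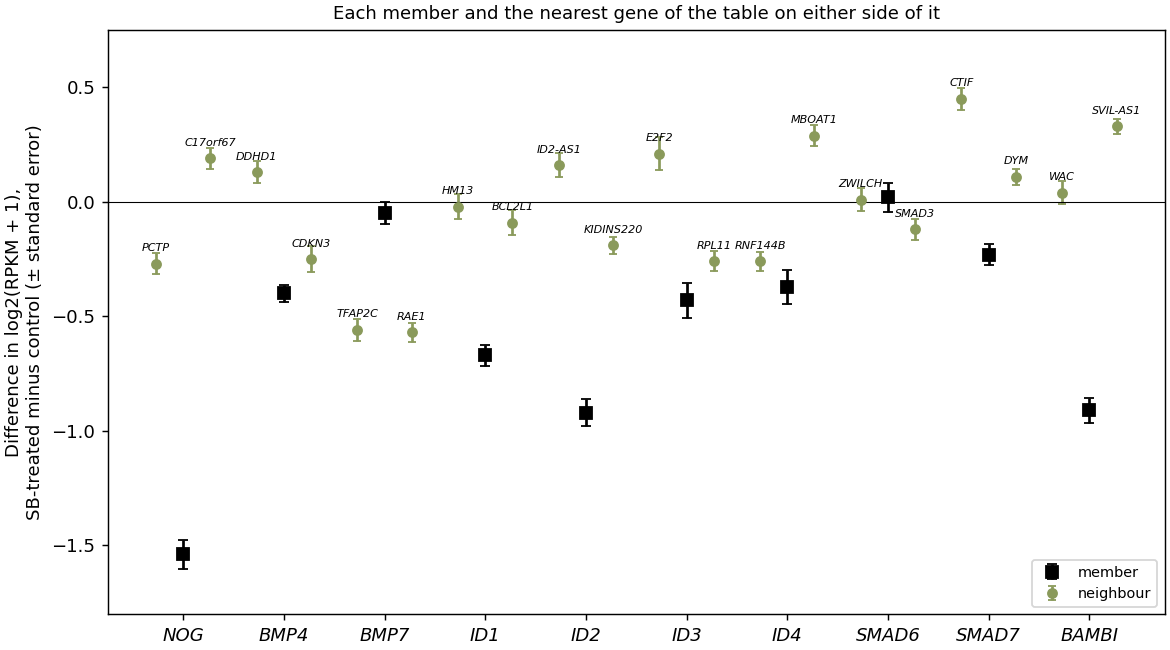
Black squares give the difference in log2(RPKM + 1), SB-treated minus control, of each of the 10 genes, and green circles that of the nearest gene of the table before (left) and after (right) it on the chromosome, all with standard errors from limma. Neighbours lie between -0.57 for RAE1 and 0.45 for CTIF, above NOG, ID1, ID2 and BAMBI in each case.

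The genes outside the list with the profile most like that of NOG were found from the root mean square difference of log2(RPKM + 1) over the 8 libraries, after each gene was centred on its mean. They were HAS2, a hyaluronan synthase, at 0.113, HILPDA, a lipid droplet protein, at 0.137, the kinase MAP2K6 at 0.137, the insulin receptor substrate IRS4 at 0.138 and MGC72080 at 0.159. Their SB-treated means were between 27.4% and 37.0% of control, against 20.7% for NOG, and their control means between 8.52 and 131 RPKM. The likeness is set mainly by the size of the difference between the groups, since the 8 libraries fall into 2 groups.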

How the data were processed

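RNA-seq of 8 samples, 4 control and 4 SB-treated, was analysed. The library kit was stranded, with 50-base single reads in the methods of the study. The authors mapped reads to hg38 with TopHat2 2.1.0, counted them per gene with featureCounts 1.5.0, removed genes that did not exceed 1 CPM in 2 or more samples, scaled library sizes with TMM in edgeR 3.16.5 and deposited RPKM values per gene and library. The deposited table also holds the authors' log2 fold changes, mean log2 CPM, p-values and FDR, which were not used.

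Reads were recovered from the RPKM values. The most frequent ratio between libraries among low genes gave the relative depth, and the library size was set so that gene lengths came out whole. All 14526 genes gave whole reads (within 0.01 of a read, 100% of genes). Recovered library sizes correspond to TMM factors of 0.957 to 1.04. No columns of per-sample values were left unused (0).

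The groups were compared on log2(RPKM + 1) by limma 3.58.1 (R 4.3.3), unfiltered. P-values of the 14526 genes were adjusted by Benjamini-Hochberg and called at 0.05. The study describes the replicates as biological, and the labels do not say whether they are separate cultures. The p-values therefore set the difference between the groups against the spread between these samples only. The test was tried on simulated data. Of the lists, 1 gene of the wider pathway and 1 hepatocyte marker are counted in their lists and not reported here. The genes listed were chosen with earlier results of these data known. The wider lists were set by role with those results known. Genes named from them are, per list, the called genes with the largest rise and fall and the gene with the highest control level, the receptors BMPR1A, ACVR1 and BMPR2, SMAD1, SMAD5, SMAD4 and the E proteins, the neighbours past the threshold, and the 5 genes with the profile most like NOG. Neighbours and promoters come from RefSeq for GRCh38.p14, gene spans from GENCODE release 44 and the search before starts from hg38, read with Python 3.11.15 and pysam 0.24.0. Alternatives were a pseudocount of 0.1, no TMM factors, median-of-ratios scaling, a minimum of 10 reads per sample, a block for replicate number, voom, an intensity trend and leaving out each sample.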

Additional observations from a re-analysis of the deposited data

Results flagged for a closer look

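In 4 of 108 groups of 4 replicates, taken over the genes named, the highest or lowest library lay apart from the others by Dixon's measure, the gap to the nearest library over the whole range of log2(RPKM + 1). Chance gives about 5.4. BMP4 was lowest in control replicate 1, with a measure of 0.901, and BMPR1A was highest there, at 0.843. E2F2 was lowest in control replicate 1, at 0.837. SKI was lowest in SB-treated replicate 1, at 0.865. Control replicate 1 thus gave 3 of the 4. BMP4 differed in log2(RPKM + 1) by -0.43 without that library and by -0.40 with it, and BMPR1A by 0.34 to 0.42 when each library was left out in turn.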

How the results depend on the processing

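With each alternative, 8 of the 10 genes were lower and 0 were higher, except that 9 were lower without control replicate 1, where BMP7 passed the threshold at -0.09. Of all 14526 genes, 5511 were lower without control replicate 1 and 3357 without the TMM factors, against 4740 in the main fit. Nothing is read from the counts of the 10 genes. Over the alternatives other than leaving out a library, the difference of NOG ranged from -2.26 with voom to -1.47 without the TMM factors, that of ID2 from -0.93 to -0.82 and that of BAMBI from -0.99 to -0.81. When each library was left out, NOG ranged from -1.59 to -1.49. Without the TMM factors the median log2 ratio of all genes moved from 0.00769 to 0.113, and BMP7 turned to 0.05, which is below that shift. Leaving out single libraries turned the sign of SMAD6 (range -0.02 to 0.06, and -0.0015 without SB-treated replicate 2), TCF3 (-0.01 to 0.04) and TCF12 (-0.01 to 0.09), none of them past the threshold. Of the wider lists, 21 to 23 genes were higher and 17 to 25 lower over the alternatives, and 18 to 22 and 21 to 26 when a library was left out. Of all genes, 4732 to 6253 were higher and 3357 to 4972 lower over the alternatives. When a library was left out, these ranges were 4311 to 5459 and 4285 to 5511.

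Of 44 other genes named, 35 kept their direction and side of the threshold throughout. The call was lost in at least 1 setting for CRIM1, ACVR1B, DDHD1, ID2-AS1, E2F2, SMAD3 and DYM, most often for SMAD3, in 11 settings. The correlations of the deviations of same-numbered replicates were 0.38, 0.327 and 0.173 for numbers 1 to 3 and -0.16 for number 4. Since they were not above 0.1 for all 4, the numbers were not taken to pair the samples. In the fit with the replicate block, 8 of the 10 genes were again lower, and 22 genes of the wider lists were higher and 23 lower. The counts of all genes with this replicate block were 4885 higher and 4894 lower, against 4787 and 4740. Depth limits NOG with SB, at 63 to 91 reads, and genes of the wider lists with few reads in all libraries. Among these are ACVRL1, at 45 to 124 reads, and ATOH8, and the neighbour ID2-AS1 is low as well.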
